A study of Mus musculus with 16 samples.

Results

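Plau, Plaur, Plat, Serpine2, Serpinb2, F3 and Tfpi make up a set of plasminogen activation and tissue factor genes in immortalized mouse keratinocytes that did or did not express integrin α3β1. All 7 were found by gene symbol among the 14474 genes of the count table. The set was chosen from gene names by hand with earlier results of these data known, in which Serpinb2 and F3 were higher in LN332-treated cells. The LN332 values of Serpinb2 and F3 are therefore given as a description with no test. MKα3− cells lack the α3 subunit, and MKα3+ cells are MKα3− cells in which human α3 was put back. Both lines therefore share the deleted mouse gene and the immortalization, and each is 1 cell line, so α3 and any other difference between the lines cannot be told apart. The cells were plated on collagen and given either vehicle, which was PBS with glycine and sodium azide, or full-length human recombinant laminin-332 (LN332, a major ligand of α3β1 in skin) at 0.02 mg/mL for 16 to 24 h. Poly(A) RNA was sequenced from 4 replicates in each of 4 groups, 16 libraries in all, to ask which α3β1-dependent genes respond to LN332 in keratinocytes.

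In the plasminogen system, the activators urokinase (Plau) and tissue-type plasminogen activator (Plat) cleave plasminogen to plasmin, a protease that degrades fibrin and matrix proteins. The receptor uPAR (Plaur) holds urokinase at the cell surface, and serpins such as PAI-2 (Serpinb2) and protease nexin-1 (Serpine2) inhibit the activators. Tissue factor (F3) starts the extrinsic coagulation pathway by binding factor VII, and tissue factor pathway inhibitor (Tfpi) blocks that step. Migrating keratinocytes at a wound edge are known to use urokinase and plasmin to move through the fibrin-rich provisional matrix.

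The genes lie on 6 chromosomes of mouse GRCm38.p6. Plau is at chr14:20836662-20843388 and Plaur at chr7:24460937-24475970, both on the plus strand. Plat is at chr8:22757722-22782848 on the plus strand, and F3 at chr3:121723537-121735052 on the plus strand. Serpine2 is at chr1:79794317-79858665 and Tfpi at chr2:84432855-84476775, both on the minus strand. Serpinb2, at chr1:107500892-107525600 on the plus strand, is 1 of 12 Serpinb genes annotated in a cluster from Serpinb5 to Serpinb8. Of these 12, only Serpinb5, Serpinb7, Serpinb2, Serpinb10 and Serpinb8 are in the count table. In the GENCODE M21 annotation, Serpinb2 and its neighbour Serpinb10, transcribed in the same direction, have 291 exon bases in common, 12.4% of the Serpinb2 exon length. In RefSeq, the source of the bounds given here, Serpinb10 (chr1:107528994-107560742) does not overlap Serpinb2. Reads were counted with another, Entrez-based annotation, and whether the shared stretch affected the counts was not tested. No other gene of the set shared exon sequence with another gene in GENCODE M21.

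The promoters of Serpinb2, F3 and Plaur are shown because these are the genes of the set whose windows held an AP-1 motif, the binding sequence of Fos and Jun dimers. Each sequence is the 250 bases before the most upstream RefSeq transcription start (GRCm38.p6) for which promoter sequence was at hand. It is read 5′ to 3′ on the strand of the gene, with every match to TGANTCA in capitals.
Serpinb2 promoter, chr1:107511173-107511422, plus strand: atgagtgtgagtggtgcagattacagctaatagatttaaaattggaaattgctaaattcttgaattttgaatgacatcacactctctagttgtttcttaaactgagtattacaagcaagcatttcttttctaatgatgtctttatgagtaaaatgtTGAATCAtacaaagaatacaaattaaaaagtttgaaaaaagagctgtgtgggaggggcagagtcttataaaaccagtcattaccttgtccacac
F3 promoter, chr3:121723287-121723536, plus strand: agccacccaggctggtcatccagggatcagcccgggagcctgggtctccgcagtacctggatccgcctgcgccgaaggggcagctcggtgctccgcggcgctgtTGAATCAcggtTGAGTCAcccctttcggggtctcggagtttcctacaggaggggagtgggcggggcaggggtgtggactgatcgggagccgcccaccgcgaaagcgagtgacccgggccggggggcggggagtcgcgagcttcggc
Plaur promoter, chr7:24462233-24462482, plus strand: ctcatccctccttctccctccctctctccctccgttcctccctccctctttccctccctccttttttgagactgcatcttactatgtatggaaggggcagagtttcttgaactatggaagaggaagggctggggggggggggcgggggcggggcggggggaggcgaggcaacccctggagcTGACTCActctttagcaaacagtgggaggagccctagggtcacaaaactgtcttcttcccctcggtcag
The starts used for Serpinb2 and Plaur lie inside the gene bounds given above, so they are not the most upstream starts of these genes in RefSeq.

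Besides AP-1, the motifs searched were the TEAD sequence GGAATG, the core promoter sequence TATAAA (called the TATA box) and the Sp1 sequence GGGCGG. All were searched on both strands and were chosen after the expression values were seen. Promoter sequence was found for 5 of the 7 genes, Plau and Plat being the others. The AP-1 match began 94 bases before the start of Serpinb2 and 69 bases before that of Plaur. The F3 window held a pair of matches, at 146 and 135 bases. Among all 32851 promoter windows of this length, 6.75% held an AP-1 match. Serpinb2 also held a TATA box 29 bases before its start, as 12.4% of the windows did at some position, and Tfpi held one at 127 bases. Sp1 matches, found in 32.7% of the windows, numbered 3 in F3, 3 in Plaur, 6 in Serpine2, 1 in Tfpi and 0 in Serpinb2. No TEAD match, present in 12.6% of the windows, was found in the 5 promoters. The Serpine2 and Tfpi windows held no AP-1 match, and a match or its absence says nothing of binding by the factor.

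**Figure D1:**
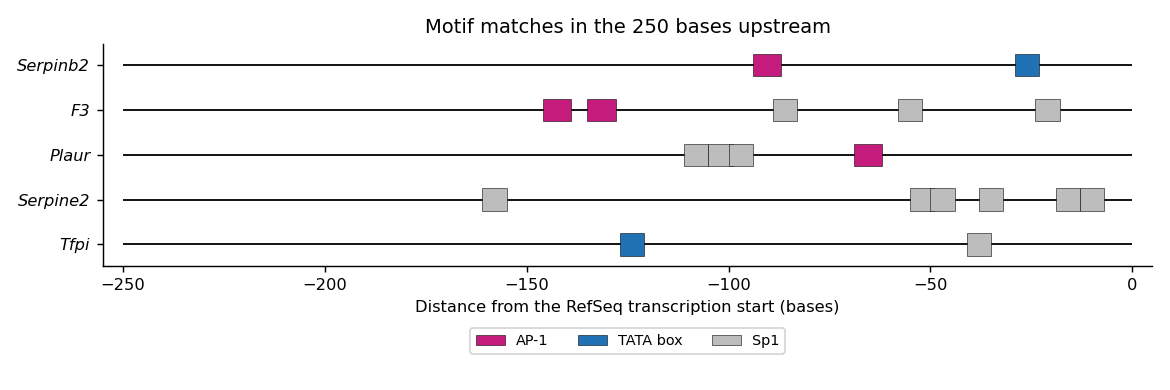
Positions of motif matches in the 250 bases before the RefSeq start of 5 genes, with distance from the start in bases on the horizontal axis and 1 line per gene. Boxes mark AP-1, TATA box and Sp1 matches, and AP-1 boxes appear in the Serpinb2, F3 and Plaur lines only.

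Total counts per library ranged from 21735708 to 29338370, with a median of 27036993. The summed level of 9 keratinocyte markers was 8923 to 19455 CPM (read counts scaled to library size with TMM factors) in all libraries, against at most 40.7 CPM for the fibroblast, 11.5 CPM for the endothelial and 10.6 CPM for the melanocyte list. Macrophage and leukocyte markers, 6 of 7 present in the table, summed to 39.4 to 105 CPM in MKα3− libraries and to 59.2 to 386 CPM in MKα3+ libraries. The sum was over 300 CPM in MKα3+ vehicle replicates 3 and 4 and MKα3+ LN332 replicate 4, where Adgre1, the gene of the macrophage marker F4/80, was at 34.5 to 35.2 CPM. Mouse Itga3 did not tell the lines apart, with 211 to 303 CPM in MKα3− vehicle and 211 to 312 CPM in MKα3+ vehicle libraries (log2 fold change 0.09, SE 0.15, adjusted p = 0.694). Which part of the gene the null allele lacks is not given in the sources used here, and human α3 has no row in the table, so Itga3 gave no check of the labels. Because the labels do not say that replicates came from separate cultures, p-values measure only the spread between these libraries.

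Per kilobase of exon, Plau was the most abundant of the 7 transcripts in every group. Mean levels in MKα3+ vehicle cells were 604 RPKM for Plau, 82.8 RPKM for Serpinb2, 44.4 RPKM for Plaur, 11.5 RPKM for F3, 3.61 RPKM for Plat, 0.521 RPKM for Tfpi and 0.105 RPKM for Serpine2. The libraries of neighbouring genes in this order did not overlap. In MKα3− vehicle cells the order was the same down to Plat, with Plau at 252 RPKM and Plat at 2.096 RPKM. There the Serpine2 level (0.113 RPKM) and the Tfpi level (0.0887 RPKM) overlapped between libraries.

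MKα3+ cells expressed more Plau, Plat and Tfpi than MKα3− cells in vehicle. In the limma-voom fit across all genes, where a call needed an adjusted p under 0.05 and a log2 fold change beyond ±0.5, these 3 of the 7 genes rose and none fell, against 18.5% of all 14474 genes that passed in either direction. Under LN332, Plau and Tfpi passed, 2 of 7, against 20.6% of all genes. The CPM ranges of the 2 lines did not overlap for Plau, Plaur and Tfpi in vehicle, against 32.9% of all genes. Under LN332 they did not overlap for Plau and Tfpi, against 26.5% of all genes. In fold terms, Tfpi was 5.84 times higher in MKα3+ cells in vehicle (95% interval 3.75 to 9.10), Plau 2.48 times (1.77 to 3.47) and Plat 1.78 times (1.22 to 2.59). The part of the macrophage markers in these differences was not tested. MKα3+ vehicle replicates 1 and 2, at 120 and 107 CPM of these markers, were also above the MKα3− vehicle libraries, at 40.1 to 91.3 CPM. Without the 3 libraries over 300 CPM, those replicates alone made up the MKα3+ vehicle group, and the same 3 genes passed in vehicle. Under LN332, Plaur and Plat passed as well without these 3 libraries, at 0.55 (adjusted p = 0.0352) and 0.88 (adjusted p = 0.0475).

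Plau encodes urokinase, the plasminogen activator that binds uPAR. In MKα3− vehicle replicates 1 to 4, Plau was at 907, 462, 482 and 535 CPM, and in MKα3− LN332 replicates at 1004, 544, 597 and 478 CPM. In MKα3+ vehicle replicates it was at 1639, 1301, 1536 and 1246 CPM, and in MKα3+ LN332 replicates at 2621, 1789, 2327 and 2116 CPM. Every MKα3+ library was above every MKα3− library, and replicate 1 of the MKα3− cells was the highest of its group in both treatments. The log2 fold change of MKα3+ against MKα3− cells was 1.31 (SE 0.23, limma-voom adjusted p = 3.61e-04) in vehicle and 1.81 (SE 0.24, adjusted p = 1.72e-05) in LN332. Left out in turn, no library ended either call, and the values ranged from 1.21 to 1.53 and from 1.66 to 2.03. All 4 MKα3+ LN332 libraries were above all 4 MKα3+ vehicle libraries. The log2 fold change with LN332 was 0.62 in MKα3+ cells (SE 0.25, 95% interval 0.11 to 1.14, adjusted p = 0.388) and 0.13 in MKα3− cells (SE 0.22, interval −0.33 to 0.59, adjusted p = 0.857). Neither passed the test with all libraries weighted alike and no replicate block (a term for the replicate number). With the block, for which no pairing is stated, the MKα3+ value passed at 0.62 (adjusted p = 0.0184). With sample quality weights the MKα3+ value passed at 0.62 (adjusted p = 0.00914), as it did without replicates 1 of MKα3− cells (0.62, adjusted p = 0.0423), a choice made after seeing the data. Without MKα3− LN332 replicate 1 the MKα3− value was −0.10. The difference between these responses, the interaction of LN332 and α3, was 0.50 (SE 0.33, interval −0.20 to 1.19, adjusted p = 0.9999). With the block it was 0.49 (SE 0.18, interval 0.11 to 0.88, adjusted p = 0.992). Neither value passed, so a stronger response in MKα3+ cells was not shown.

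Plat encodes the other activator, which is best known for fibrin-bound plasminogen activation in blood vessels. Its levels in MKα3− cells were 19.4, 9.56, 14.0 and 9.39 CPM in vehicle and 17.5, 9.43, 11.4 and 5.57 CPM in LN332. In MKα3+ cells they were 26.5, 24.4, 22.8 and 16.5 CPM in vehicle and 21.1, 17.2, 18.8 and 13.7 CPM in LN332. The lines overlapped in both treatments, through the high replicate 1 of MKα3− cells. In vehicle Plat rose in MKα3+ cells, by 0.83 on the log2 scale (SE 0.26, adjusted p = 0.0223), and under LN332 the value was 0.75 (SE 0.28, adjusted p = 0.0508), which missed the threshold. The vehicle call was lost without MKα3+ vehicle replicate 1 or 2 or MKα3− vehicle replicate 2 or 4, with adjusted p from 0.0550 to 0.0735. The LN332 comparison passed without MKα3− LN332 replicate 1, MKα3− vehicle replicate 1, MKα3+ LN332 replicate 4 or MKα3+ vehicle replicate 4, with adjusted p from 0.0138 to 0.0468. With all libraries it passed by DESeq2 (0.69, adjusted p = 0.0446), with at least 10 counts required in every library (0.76, adjusted p = 0.0498) and with sample quality weights (0.75, adjusted p = 0.0252). With LN332, the log2 fold change of Plat was −0.35 in MKα3+ cells (SE 0.25, adjusted p = 0.771) and −0.27 in MKα3− cells (SE 0.29, adjusted p = 0.745).

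Plaur encodes uPAR, the receptor that localizes urokinase and also associates with integrins. It was at 105, 77.7, 62.7 and 89.4 CPM in MKα3− vehicle replicates and at 145, 118, 93.1 and 113 CPM in MKα3− LN332 replicates. MKα3+ libraries had Plaur at 119, 116, 120.2 and 109.7 CPM in vehicle and at 183, 149, 178 and 143 CPM in LN332. The group mean was 83.8 ± 18.1 CPM (SD, n = 4) in MKα3− vehicle, 117 ± 21.4 CPM in MKα3− LN332, 116 ± 4.64 CPM in MKα3+ vehicle and 163 ± 20.03 CPM in MKα3+ LN332 libraries, so vehicle-treated MKα3+ cells lay beside LN332-treated MKα3− cells. For α3 the log2 fold change was 0.498 in vehicle (SE 0.15, adjusted p = 0.0162) and 0.49 in LN332 (SE 0.15, adjusted p = 0.0176), just under the minimum of 0.5. The vehicle value passed without MKα3− vehicle replicate 1 or 4 or MKα3+ vehicle replicate 4, at 0.53 to 0.62, and with at least 10 counts in every library (0.502) or sample quality weights (0.58). Under LN332 it passed without MKα3− LN332 replicate 1 or MKα3+ LN332 replicate 2 or 4, at 0.52 to 0.59. With LN332 the log2 fold change was 0.48 in MKα3+ cells (SE 0.15, interval 0.17 to 0.79, adjusted p = 0.203) and 0.49 in MKα3− cells (SE 0.15, interval 0.19 to 0.80, adjusted p = 0.152), neither past the test. With the replicate block the values were 0.48 (adjusted p = 0.0370) and 0.49 (adjusted p = 0.0302). There both missed a call only through the minimum of 0.5.

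Serpinb2 encodes PAI-2, a largely intracellular serpin that inhibits urokinase and is made by epidermal keratinocytes and by monocytes. It was at 145, 146, 133 and 226 CPM in MKα3− vehicle libraries and at 255, 315, 311 and 396 CPM in MKα3− LN332 libraries. In MKα3+ libraries it was at 168, 172, 236 and 202 CPM in vehicle and at 394, 356, 453 and 437 CPM in LN332. Within each line all 4 LN332 libraries were above all 4 vehicle libraries. LN332-treated cells had a log2 fold change of 1.08 in MKα3+ cells (SE 0.17, interval 0.73 to 1.43) and of 0.99 in MKα3− cells (SE 0.16, interval 0.64 to 1.34), given without a test because these values chose the gene. The differences between lines were smaller, at 0.28 in vehicle (SE 0.16, adjusted p = 0.216) and 0.37 in LN332 (SE 0.17, adjusted p = 0.109), and neither passed. The response of the lines to LN332 differed by 0.09 (SE 0.23, interval −0.40 to 0.59), also given without a test.

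Serpine2, the gene of protease nexin-1, an inhibitor of thrombin and of plasminogen activators, was near the limit of detection with 11 to 49 reads per library. Its level was 0.386 to 1.69 CPM in MKα3− vehicle, 0.600 to 1.47 CPM in MKα3− LN332, 0.582 to 1.16 CPM in MKα3+ vehicle and 0.712 to 1.18 CPM in MKα3+ LN332 libraries. All 4 groups overlapped. Its log2 fold changes were 0.03 and 0.18 for α3 and 0.17 and 0.02 for LN332, with SEs of 0.39 to 0.40. The 95% intervals lay between −0.81 and 1.01, so neither a rise nor a fall within them could be excluded.

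F3 encodes tissue factor, which in skin is found in the epidermis and is known for its role in haemostasis at the body surface. F3 was at 45.9, 29.2, 25.2 and 40.2 CPM in MKα3− vehicle and at 64.9, 42.7, 44.1 and 66.4 CPM in MKα3− LN332 replicates. MKα3+ libraries had F3 at 25.8, 30.7, 30.4 and 29.5 CPM in vehicle and at 77.2, 50.9, 55.6 and 53.3 CPM in LN332. All 4 LN332 libraries were above all 4 vehicle libraries in MKα3+ cells, whereas in MKα3− cells the groups overlapped through vehicle replicate 1. The log2 fold change with LN332 was 1.01 in MKα3+ cells (SE 0.19, interval 0.60 to 1.42) and 0.64 in MKα3− cells (SE 0.19, interval 0.24 to 1.04), given without a test for the same reason as for Serpinb2. The difference between these responses was 0.37 (SE 0.27, interval −0.20 to 0.94), also given without a test. Between the lines, F3 differed by −0.24 in vehicle (SE 0.20, adjusted p = 0.400) and by 0.14 in LN332 (SE 0.19, adjusted p = 0.615).

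Tfpi, the inhibitor of the tissue factor and factor VII complex, was low in all libraries but separated the lines. MKα3− cells had Tfpi at 0.421, 0.576, 0.319 and 0.622 CPM in vehicle and at 0.543, 0.177, 0.287 and 0.538 CPM in LN332, from 5 to 18 reads per library. MKα3+ cells had it at 2.69, 3.13, 3.06 and 2.52 CPM in vehicle and at 1.73, 2.15, 2.76 and 2.1 CPM in LN332, from 43 to 78 reads. Every MKα3+ library was above every MKα3− library, in a range where few reads carry the value. The log2 fold change was 2.55 in vehicle (SE 0.30, adjusted p = 6.71e-06) and 2.59 in LN332 (SE 0.34, adjusted p = 2.00e-05), and no single library ended either call. With at least 10 counts required in every library, Tfpi was filtered out and not tested, as its lowest count was 5. LN332 gave −0.39 in MKα3+ cells (SE 0.22, adjusted p = 0.632) and −0.43 in MKα3− cells (SE 0.40, adjusted p = 0.684).

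**Figure D2:**
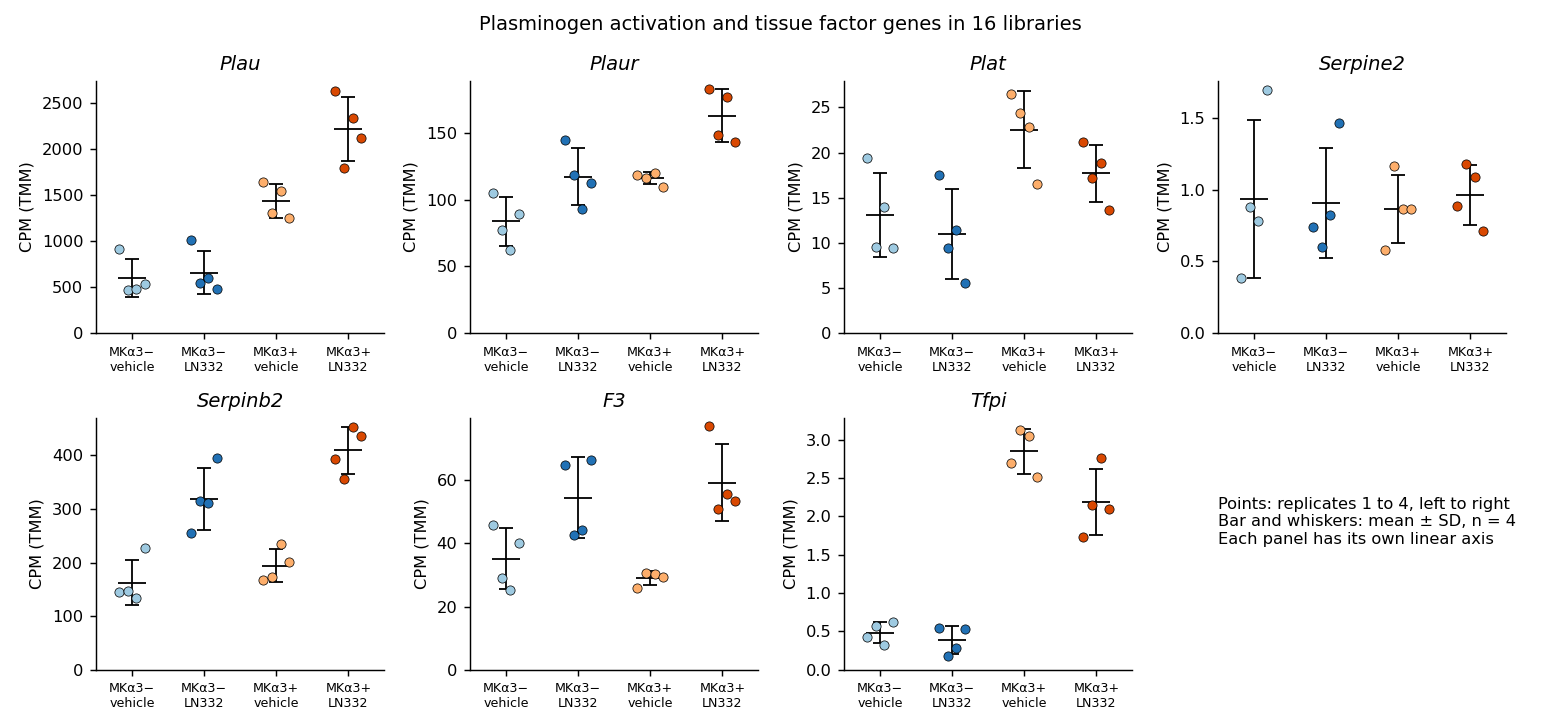
Level of each of the 7 genes in CPM (vertical axis, linear, scaled separately per panel) in the 4 groups, with points for replicates 1 to 4 from left to right and bars for mean ± SD (n = 4). Plau and Tfpi points separate MKα3+ from MKα3− cells, whereas Serpinb2 points separate LN332 from vehicle in both lines.

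For LN332, 0.187% of all genes passed the threshold of the fit in MKα3+ cells and 0.304% in MKα3− cells. None of the 5 genes that were not chosen for their LN332 values (Plau, Plat, Plaur, Serpine2 and Tfpi) passed in either line. Whether Serpinb2 and F3 passed is left aside, since they were picked with this result known. With each library left out in turn, the log2 fold changes ranged from 1.02 to 1.18 for Serpinb2 and 0.88 to 1.07 for F3 in MKα3+ cells, and from 0.87 to 1.16 and 0.49 to 0.78 in MKα3− cells. Without the 3 libraries high in macrophage markers the MKα3+ values were 1.23 for Serpinb2 and 1.10 for F3, and 0 of all genes passed with the 5 remaining MKα3+ libraries. Among the 5 other genes, the treatments did not overlap for Plau and Plaur in MKα3+ cells, against 9.66% of all genes, and overlapped for all 5 in MKα3− cells, against 4.95% of all genes without overlap. The interaction of LN332 and α3 passed for 0 of all genes in limma-voom, edgeR and DESeq2, with 164 genes at an unadjusted p under 0.05 in limma-voom. The comparisons share libraries, so their values are not independent of each other.

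**Figure D3:**
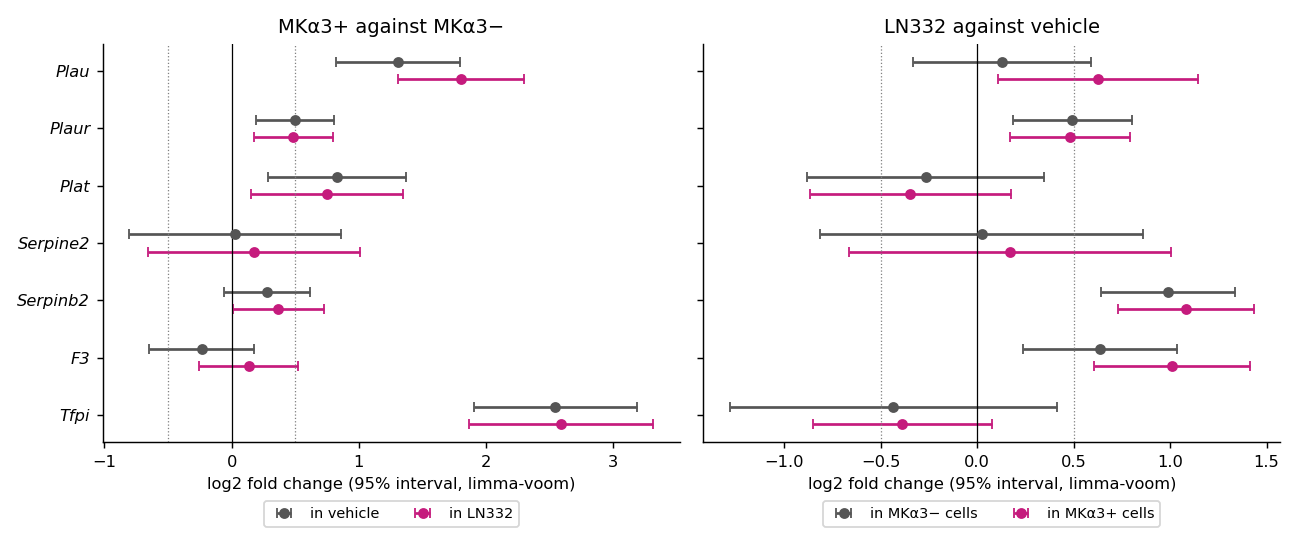
Log2 fold change of the 7 genes with 95% intervals from the limma-voom fit, for MKα3+ against MKα3− cells (left) and for LN332 against vehicle (right), with dotted lines at ±0.5. In the left panel the points of Plau, Tfpi and Plat lie to the right of 0.5, with whole intervals beyond 0.5 for Plau and Tfpi only. Serpinb2 (1.08 and 0.99) lies farthest right in the right panel.

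Other genes of these pathways were taken from lists of 80 genes, of which 48 were in the table. For α3 in vehicle 10 of the 48 rose and 7 fell, against 10.9% and 7.56% of all genes. Under LN332 11 rose and 7 fell, against 11.7% and 8.92%. None passed for LN332 in either line, where 25 of all genes rose and 2 fell in MKα3+ cells and 35 rose and 9 fell in MKα3− cells. At an unadjusted p under 0.05, 9 and 7 of the 48 differed in MKα3+ and MKα3− cells, against 9.59% and 14% of all genes, so the MKα3− count was near the share of all genes. By edgeR 0 and 1 passed, and by DESeq2 1 and 1. Without MKα3− LN332 replicate 1, limma-voom called 1 and 3. Without the 3 MKα3+ libraries high in macrophage markers, 12 and 16 of the 48 passed for α3, against 17 and 18 with all libraries. The share of all genes in that fit is not given here.

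Of 18 plasminogen system genes present, 2 rose and 4 fell in MKα3+ vehicle cells, and 3 rose and 2 fell under LN332, against 18.5% and 20.6% of all genes in either direction. The median log2 fold change in vehicle was −0.08, against 0.01 over all genes. Vldlr, an endocytic receptor that can clear urokinase complexes from the cell surface, was at 0.491 to 1.52 CPM in MKα3− and at 6.46 to 20.7 CPM in MKα3+ libraries. Its log2 fold changes with α3 were 3.63 in vehicle (SE 0.43, adjusted p = 5.80e-06) and 3.53 in LN332 (SE 0.37, adjusted p = 1.45e-06). Igf2r, a receptor that binds uPAR and latent TGF-β, fell by 0.69 on the log2 scale in vehicle (adjusted p = 7.00e-04). Under LN332 the Igf2r value was −0.24 (adjusted p = 0.163), with MKα3− libraries at 37.4 to 54.1 CPM and MKα3+ libraries at 31.3 to 45.8 CPM, which overlapped. Plgrkt, a cell surface receptor for plasminogen, was at 44.8 to 75.9 CPM in MKα3− and at 28.6 to 42.1 CPM in MKα3+ libraries, which did not overlap. It fell by 0.65 on the log2 scale with α3 in vehicle (SE 0.16, adjusted p = 0.00469) and by 0.82 under LN332 (SE 0.16, adjusted p = 7.92e-04). The vehicle call was lost without the 3 libraries high in macrophage markers (−0.59, adjusted p = 0.0775). Klk8, a kallikrein-related protease of the epidermis, fell by 0.88 on the log2 scale in vehicle (adjusted p = 0.0201), a call lost without MKα3− vehicle replicate 1 or MKα3+ vehicle replicate 3 or 4. The Klk8 value was −0.70 (adjusted p = 0.218) without the 3 libraries high in macrophage markers, and −0.71 (adjusted p = 0.0645) under LN332 with all libraries. Plasminogen itself (Plg) was barely detected, with group means from 0.285 to 0.730 CPM, and did not pass for α3 in vehicle (adjusted p = 0.0663).

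Of 20 tissue factor and coagulation genes present, 5 rose and 1 fell with α3 in vehicle, and 5 rose and 2 fell under LN332, against the same 18.5% and 20.6% of all genes, with a median in vehicle of −0.04. The genes that rose in both treatments included Thbd, Procr and Pros1, which encode thrombomodulin, the endothelial protein C receptor and protein S. Protein C itself (Proc), which these proteins activate, bind or assist, did not pass, with log2 fold changes of −0.66 (adjusted p = 0.164) in vehicle and −0.65 (adjusted p = 0.181) in LN332 and a level of 0.824 to 3.49 CPM in all libraries. Thbd was at 0.667 to 1.83 CPM in MKα3− and at 11.1 to 20.3 CPM in MKα3+ libraries, with log2 fold changes of 3.29 (SE 0.26, adjusted p = 6.27e-08) in vehicle and 3.58 (SE 0.26, adjusted p = 1.95e-08) in LN332. Procr differed by 0.85 (SE 0.21, adjusted p = 0.00510) and 0.82 (SE 0.21, adjusted p = 0.00633), and Pros1 by 1.80 (SE 0.26, adjusted p = 5.03e-05) and 1.88 (SE 0.29, adjusted p = 9.47e-05). The Procr call in vehicle was lost without the 3 libraries high in macrophage markers (0.81, adjusted p = 0.0635). F2rl1 encodes the protease-activated receptor PAR2, which the complex of tissue factor and activated factor VII can cleave. It fell by 1.52 on the log2 scale under LN332 (adjusted p = 0.0241), with a vehicle value of −1.02 (adjusted p = 0.125). That call was lost without MKα3+ LN332 replicate 1 or 4, MKα3− LN332 replicate 2 or 3, or the 3 libraries high in macrophage markers.

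**Figure D4:**
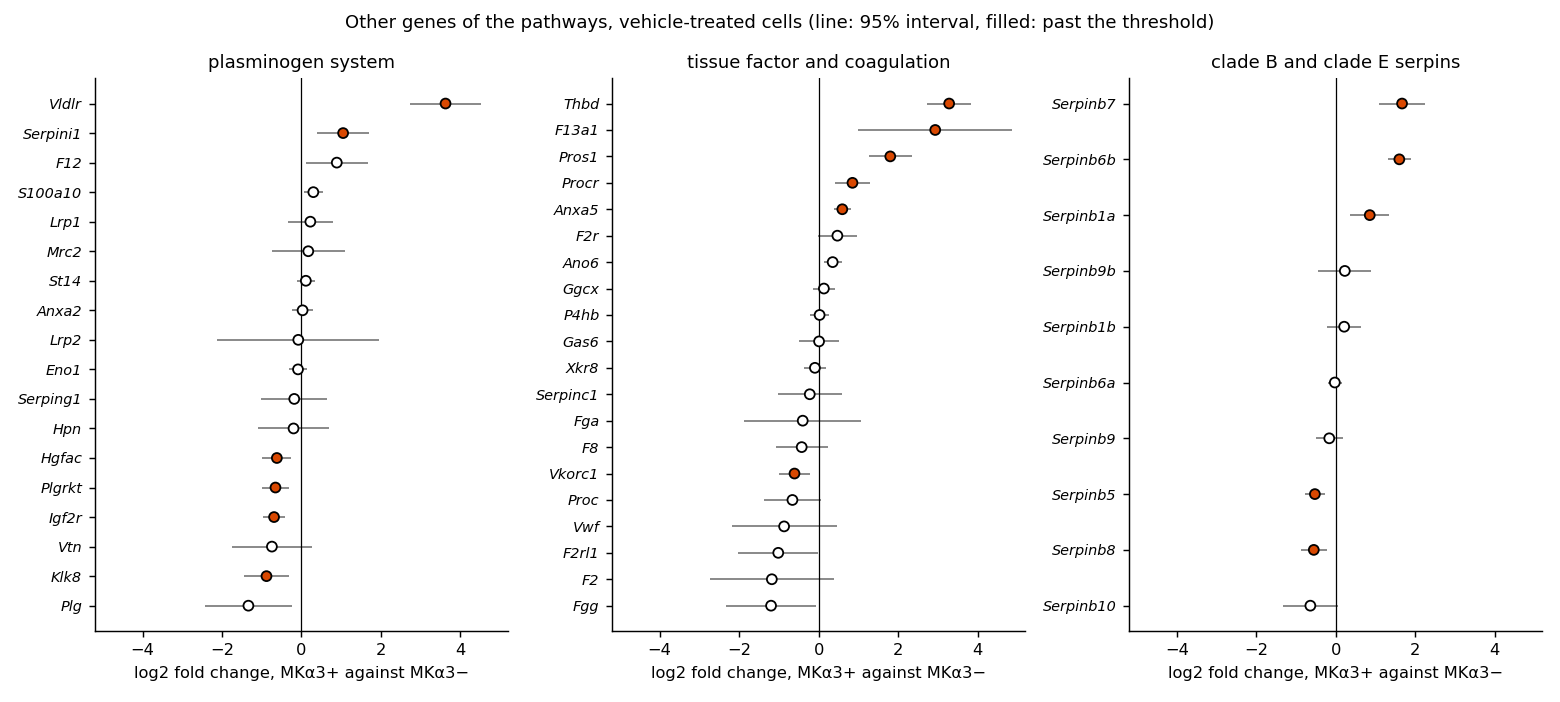
Log2 fold change of MKα3+ against MKα3− cells in vehicle with 95% intervals (limma-voom) for the pathway genes in the table, 1 panel per list, with filled points past the threshold. Vldlr, Thbd and Serpinb7 lead their panels.

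Of 10 clade B serpins present besides Serpinb2, 3 rose and 2 fell with α3 in vehicle, and 3 rose and 3 fell under LN332, where 18.5% and 20.6% of all genes passed. Serpinb7 rose by 1.67 (SE 0.27, adjusted p = 1.95e-04) in vehicle and 2.09 (SE 0.26, adjusted p = 9.67e-06) in LN332, and Serpinb6b by 1.60 and 1.70. Serpinb1a, an inhibitor of neutrophil proteases, rose by 0.85 and 0.79. Serpinb5 (maspin) and Serpinb8, which lie in the same cluster as Serpinb2, fell by 0.53 and 0.56 on the log2 scale in vehicle and by 0.91 and 0.83 under LN332. The vehicle call was lost without MKα3+ vehicle replicate 2 or MKα3− vehicle replicate 3 for Serpinb5, and without MKα3+ vehicle replicate 2, MKα3− vehicle replicate 4 or the 3 libraries high in macrophage markers for Serpinb8. For LN332, 9 of the 10 serpins had a positive log2 fold change in each line, against 7025 (MKα3+) and 7085 (MKα3−) of all 14474 genes. The medians were 0.11 in MKα3+ and 0.28 in MKα3− cells, against −0.01 over all genes, and none passed. Serpinb1a was at 1.87 to 2.25 CPM in MKα3− vehicle, 3.14 to 5.403 CPM in MKα3− LN332, 2.94 to 4.28 CPM in MKα3+ vehicle and 5.37 to 8.89 CPM in MKα3+ LN332 libraries. The treatments did not overlap in either line for Serpinb1a, at 0.89 (adjusted p = 0.0663) in MKα3+ and 0.95 (adjusted p = 0.0843) in MKα3− cells. Serpinb10, whose exons overlap those of Serpinb2 in GENCODE M21, was at 0.39 with LN332 in MKα3− cells (adjusted p = 0.636) and at −0.10 in MKα3+ cells (adjusted p = 0.975). Serpinb2 was at 0.99 and 1.08 there. Between lines Serpinb10 fell by 1.13 on the log2 scale under LN332 (adjusted p = 0.0146), with a vehicle value of −0.64 (adjusted p = 0.160). The 5 measured genes of the chromosome 1 cluster therefore gave log2 fold changes with α3 under LN332 of −0.91 for Serpinb5, 2.09 for Serpinb7, 0.37 for Serpinb2, −1.13 for Serpinb10 and −0.83 for Serpinb8.

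**Figure D5:**
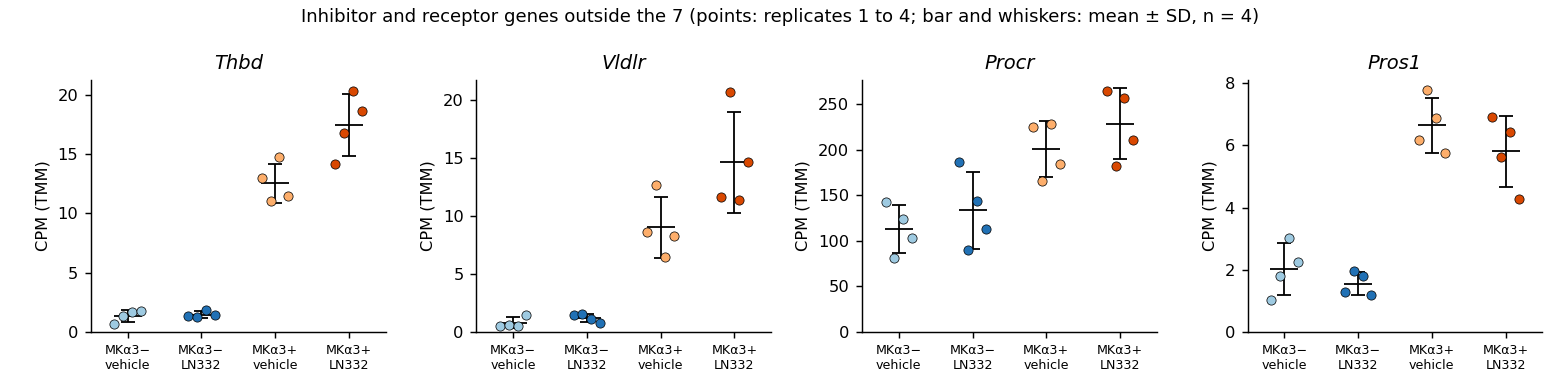
Level in CPM (vertical axis, linear) of Thbd, Vldlr, Procr and Pros1 in the 4 groups, with points for replicates 1 to 4 and bars for mean ± SD (n = 4). Thbd, Vldlr and Pros1 points do not overlap between lines, whereas the Procr points of LN332-treated cells do.

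Across the 16 libraries, the genes of the set followed different patterns. With the mean of each line removed, the Pearson correlation of log2 CPM was 0.90 between Plaur and F3, 0.83 between Serpinb2 and F3, 0.76 between Plau and Plaur, 0.73 between Plaur and Serpinb2 and 0.70 between Plau and F3. Plat was at −0.58 with Serpinb2 on that scale. The libraries share their treatment and replicate number, so these values are a description. The pattern most like Plau over the 16 libraries was that of Icam1 (r = 0.98), followed by Cldn6 (0.98) and Csf1 (0.98). For Plaur it was Il1a (0.95), for Plat Mmp11 (0.95), for Serpinb2 Phldb2 (0.94), for F3 Anxa1 (0.90), for Tfpi Pls1 (0.97) and for Serpine2 Col1a2 (0.86). With the line means removed the Tfpi and Pls1 value was 0.61, whereas Plau and Icam1 stayed at 0.94. Ccn2, known as a YAP and TEAD target, was the third most like Serpinb2 (0.91).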

How the data were processed

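The authors aligned reads with Rsubread 2.10.5 to mm10 and deposited raw counts per gene from featureCounts with its built-in Entrez annotation. The strand setting is not given in the sources used here. Per the labels, bcl2fastq 2.20, edgeR and limma were among the tools. Groups came from the labels of the 16 libraries. As in the methods of the study, genes with CPM over 0.5 in at least 3 libraries were kept (0 of 14474 were removed), counts were scaled by TMM and fitted with limma-voom in 1 model of 4 groups. The threshold was a Benjamini-Hochberg adjusted p under 0.05 over all genes, two-sided, with an absolute log2 fold change over 0.5. R 4.3.3, limma 3.58.1, edgeR 4.0.16 and DESeq2 1.42.0 were used, and the fit was tested on simulated data. RPKM used union exon lengths of GENCODE M21, in which 91.16% of genes were found. No replicates were near-identical (chi-square per degree of freedom at least 5.43).

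The members, gene lists and tests were chosen with earlier results of these data known. Named pathway genes are those that passed, averaged 1 or more on the log2 CPM scale, and were among the 10 largest changes of a comparison. A gene of the lists is not reported here. Genes most like a member are the 3 with the highest Pearson r, above the same mean level. Plg and Proc were named after their values were seen, as were the motifs. Alternatives were edgeR, DESeq2, other scalings, filters and minimum folds, a replicate block, quality weights, the compared groups alone and leaving out libraries.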

Additional observations from a re-analysis of the deposited data

Results flagged for a closer look

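Of 28 groups of 4 libraries tested, 7 genes in 4 groups, 2 had a library beyond Dixon's 95% critical value for 4, where chance alone gives about 1.4. Plau was at 907 CPM in MKα3− vehicle replicate 1, with the other 3 libraries at 462 to 535 CPM. Serpinb2 was at 226 CPM in MKα3− vehicle replicate 4, with the others at 133 to 146 CPM. Without that library the log2 fold change of Serpinb2 with α3 in vehicle was 0.45, and its LN332 value in MKα3− cells was 1.16.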

How the results depend on the processing

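Leaving out each library in turn gave 2 to 4 members past the threshold for α3 in vehicle and 2 to 4 for α3 in LN332. Of all genes, 2345 to 2754 and 2590 to 3338 passed in these fits. Members are not counted for LN332, since Serpinb2 and F3 were chosen by their LN332 values. Pathway genes numbered 14 to 18 and 15 to 19 for α3 in vehicle and in LN332. For LN332 in MKα3+ and MKα3− cells they numbered 0 to 1 and 0 to 3. Over all genes the counts for LN332 were 0 to 47 and 1 to 150. For α3 in vehicle and in LN332, counts over all genes were 4115 and 4654 with no minimum fold and 1362 and 1345 with a minimum of 1 (pathway genes 7 and 9). With that minimum, LN332 gave 5 genes in MKα3+ and 6 in MKα3− cells. For LN332 in MKα3+ cells all genes numbered 4 with edgeR, 121 with DESeq2 (1 pathway gene) and 3 with library size alone. They numbered 454 with quality weights (4 pathway genes) and 106 with only the compared groups. In MKα3− cells they numbered 165 with DESeq2 (1 pathway gene), 74 with library size alone, 123 with quality weights and 1 with only the compared groups. There edgeR gave 1 pathway gene. These LN332 counts rest on the setting, and the cause was not tested.

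Chosen after seeing the data, leaving out replicates 1 of MKα3− cells let Plat and Plaur pass besides Plau and Tfpi for α3 in LN332. It gave 73 genes (1 pathway gene) and 69 genes for LN332 in MKα3+ and MKα3− cells. Leaving out the 3 MKα3+ libraries over 300 CPM of macrophage markers let the same members pass for α3 in LN332. For LN332 it gave 0 genes in MKα3+ and 1 in MKα3− cells, from fewer libraries.

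No paired design is stated. Of 24 pairs of libraries with the same replicate number, 18 correlated above 0.1 (lowest −0.047), and 13 of 16 libraries correlated best with their own number. With a replicate block, LN332 called 218 genes in MKα3+ (2 pathway genes) and 259 in MKα3− cells (2 pathway genes). In MKα3+ cells Plau passed with the block (0.62, adjusted p = 0.0184), and Plat passed for α3 in LN332 (adjusted p = 8.41e-04). The block changed no other call of the 7 genes, the LN332 values of Serpinb2 and F3 left aside. For Plaur and LN332 it gave adjusted p of 0.0370 in MKα3+ and 0.0302 in MKα3− cells, with log2 fold changes under 0.5.

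Signs turned only for values that passed under no setting. For Serpine2 and α3 in vehicle the log2 fold change was −0.11 with edgeR, −0.12 with DESeq2, −0.044 with the block, −0.32 without replicates 1 of MKα3− cells and −0.012 without the 3 MKα3+ libraries (−0.32 to 0.37 leaving out single libraries). For Serpine2 and LN332 in MKα3− cells it was −0.060 with edgeR, −0.061 with DESeq2, −0.039 with library size alone, −0.037 with the block, −0.32 with quality weights and −0.27 without replicates 1 (−0.33 to 0.37), and in MKα3+ cells −0.0069 to 0.32. Plau and LN332 in MKα3− cells ranged from −0.10 to 0.35. The interaction was 0.0038 with edgeR, 0.0092 with DESeq2 and 0.030 without the 3 MKα3+ libraries for Plaur, and −0.030 and −0.0069 with edgeR and DESeq2 for Tfpi. Leaving out single libraries it ranged from −0.13 to 0.12 for Plaur, −0.32 to 0.18 for Plat, −0.20 to 0.50 for Serpine2, −0.079 to 0.21 for Serpinb2 and −0.27 to 0.27 for Tfpi. Scaling by library size alone moved the median of all genes by −0.078 in MKα3+ and −0.077 in MKα3− cells for LN332. Serpine2 (11 to 49 reads per library) and Tfpi (5 to 78) rest on few reads.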
